A study of Mus musculus with 8 samples.

Results

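Protease inhibitors restrain the enzymes that neutrophils store in their granules and lysosomes, and 8 inhibitor genes were followed here in spleen neutrophils with and without the chemokine receptor Cxcr2. They are Stfa1, Stfa2, Stfa2l1, Stfa3 and BC100530 of the stefin A cluster, Cstb (cystatin B), Slpi (secretory leukocyte peptidase inhibitor) and Serpinb1a (serpin B1a). Members were chosen by name, with earlier results of these data known. Their Ensembl identifiers were matched to GENCODE M21 symbols among the 55414 genes listed in the count tables. All 8 passed the filter on low counts and were tested.

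The RNA came from CD45+ CD11b+ Ly6G+ F4/80- cells, sorted from the spleen of each of 4 WT and 4 Cxcr2-/- mice and sequenced as 1 library per mouse. All animals were 10 weeks old, on the FVB background and kept under SOPF housing (specific and opportunistic pathogen free). Cxcr2-/- mice carry the null allele in the whole animal, so the cells that surround the neutrophils lack the receptor too. None of the 8 genes lies on chromosome 1, which carries Cxcr2. Because each library is a bulk sample, fewer cells expressing a gene and less RNA per cell cannot be told apart.

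WT libraries held 34220182 to 46233555 counts assigned to genes, and Cxcr2-/- libraries held 37549648 to 43789253. Cxcr2 RNA was at 1719 to 2252 CPM (a gene's counts relative to the library total after TMM scaling) in the WT mice and at 12.9 to 20.7 CPM in the Cxcr2-/- mice, as every label has it. Summed markers of neutrophils were at 31078 to 44810 CPM in WT and at 67647 to 81577 CPM in Cxcr2-/- libraries. Of these 8 markers 6 rose and 1 fell (edgeR adjusted p under 0.05). Those of neutrophil precursors (Elane, Mpo, Prtn3, Ctsg and Ms4a3) were at 4.37 to 17.3 and at 70.5 to 386 CPM. Secondary granule genes (Camp, Ltf, Ngp, Lcn2 and Chil3) were at 21889 to 26671 and at 51013 to 73718 CPM. Summed B cell markers were lower in Cxcr2-/- libraries (63.1 to 143 against 28.3 to 63.4 CPM), and 5 of the 6 fell. The monocyte and macrophage sum was lower too (451 to 546 against 210.2 to 341 CPM), but of its 7 markers only 2 fell and 1 rose. Other cell types were not all lower. T and NK cell markers overlapped (84.4 to 113 against 90.2 to 138 CPM), and plasma cell markers were at 0.578 to 3.03 against 2.98 to 7.05 CPM. The part of these differences in the results on the inhibitors was not tested, except by a covariate made from the markers of other cell types.

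Stefins, the type 1 cystatins, are small proteins of the cytosol without a signal peptide that block papain-like cysteine proteases such as the cathepsins. Mice carry several stefin A genes side by side, whereas cystatin B is the product of 1 gene elsewhere. Slpi is a secreted inhibitor of whey acidic protein folds that blocks neutrophil elastase and cathepsin G, and serpin B1a is a cytosolic serpin that inactivates the same granule serine proteases. These inhibitors are known in neutrophils as a shield of the cell against its own proteases.

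The 5 stefin A genes are near copies of each other, which is why their sequences are shown before their counts. In GRCm38 (positions from GENCODE M21) the cluster covers chr16:36119946-36455392, 335.4 kb with 11 genes, of which 10 are annotated as protein coding. Stfa2l1 (ENSMUSG00000059657) lies at chr16:36156811-36161953 and Stfa1 (ENSMUSG00000071562) at chr16:36276951-36285373, both on the plus strand. BC100530 (ENSMUSG00000071561, chr16:36359382-36367748), Stfa2 (ENSMUSG00000022902, chr16:36403992-36408457) and Stfa3 (ENSMUSG00000054905, chr16:36450537-36455392) lie on the minus strand. A gap-free stretch of 90 coding bases near the start of each reading frame (coding bases 28 to 117 of Stfa2l1, Stfa2 and Stfa3 and 10 to 99 of BC100530 and Stfa1, M21 transcripts) is given below 5′ to 3′, with capitals where a gene differs from Stfa2l1.
Stfa2l1: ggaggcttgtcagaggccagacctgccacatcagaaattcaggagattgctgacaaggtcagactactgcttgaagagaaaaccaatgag
Stfa2: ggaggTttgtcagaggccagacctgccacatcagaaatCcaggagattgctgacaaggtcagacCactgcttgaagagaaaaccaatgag
Stfa3: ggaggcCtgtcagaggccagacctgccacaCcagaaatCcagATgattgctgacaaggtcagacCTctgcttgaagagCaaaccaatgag
BC100530: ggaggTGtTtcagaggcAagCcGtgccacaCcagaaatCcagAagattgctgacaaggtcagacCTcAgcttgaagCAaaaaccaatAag
Stfa1: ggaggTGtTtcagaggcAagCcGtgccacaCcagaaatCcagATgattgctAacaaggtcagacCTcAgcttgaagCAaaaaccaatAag

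Stfa2 differs from Stfa2l1 at 3 of the 90 bases, Stfa3 at 8, BC100530 at 15 and Stfa1 at 17. Over whole coding sequences Stfa2l1 shared 96.4% of aligned bases with Stfa2, 81.6% with Stfa3 and 74.8% with BC100530. Cstb was the distant relative, at 56.2% identity with Stfa2l1. These similarities bear on counting, since pairs aligned to several places (8.23% to 11.2% of pairs in WT and 10.4% to 13.3% in Cxcr2-/- libraries) were counted on no gene. Windows were taken from 1 transcript per gene, that with the longest coding sequence, and sought in all transcripts of other genes. Among all 120-base windows of a member's transcript, 11.2% of those of BC100530 occurred in a transcript of another gene (BC117090, Stfa1 or the antisense Gm15845). The share was 0% for the transcripts used of Stfa1, Stfa2, Stfa2l1, Stfa3, Cstb, Slpi and Serpinb1a. For Stfa1 this does not cover the whole gene, as another of its transcripts holds windows of BC100530. With 50-base windows it was 48.9% for BC100530, 25.4% for Stfa1, 24.6% for Stfa2l1, 15.9% for Stfa2 and 0% for Stfa3. Windows came from the reference strain, and how FVB sequence changes them was not tested.

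Stfa2, Stfa3, BC100530 and Stfa1 were higher in Cxcr2-/- than in WT spleen neutrophils, by 9.43-fold, 9.58-fold, 6.35-fold and 3.31-fold, as was Serpinb1a by 2.52-fold. Stfa2l1, the stefin A gene with the most counts in WT cells, was higher by 1.52-fold with overlapping groups, and this call was lost under several alternative settings. Cstb and Slpi did not pass the test. Of the 8 members, 6 rose with an adjusted p under 0.05 in edgeR's quasi-likelihood test and 0 fell, where 23.7% of the 16778 genes tested rose and 21.0% fell. All 6 also exceeded 1.5-fold, as 15.7% of all tested genes did in this direction. The groups did not overlap for 5 members, against 41.6% of all tested genes in either direction. The median log2 fold change (Cxcr2-/- over WT) was 1.53 over the members and 0.01 over all tested genes. Because members were chosen with earlier results of these data known, these shares and medians describe the list and test nothing. The plot of CPM by mouse shows these values.

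**Figure D1:**
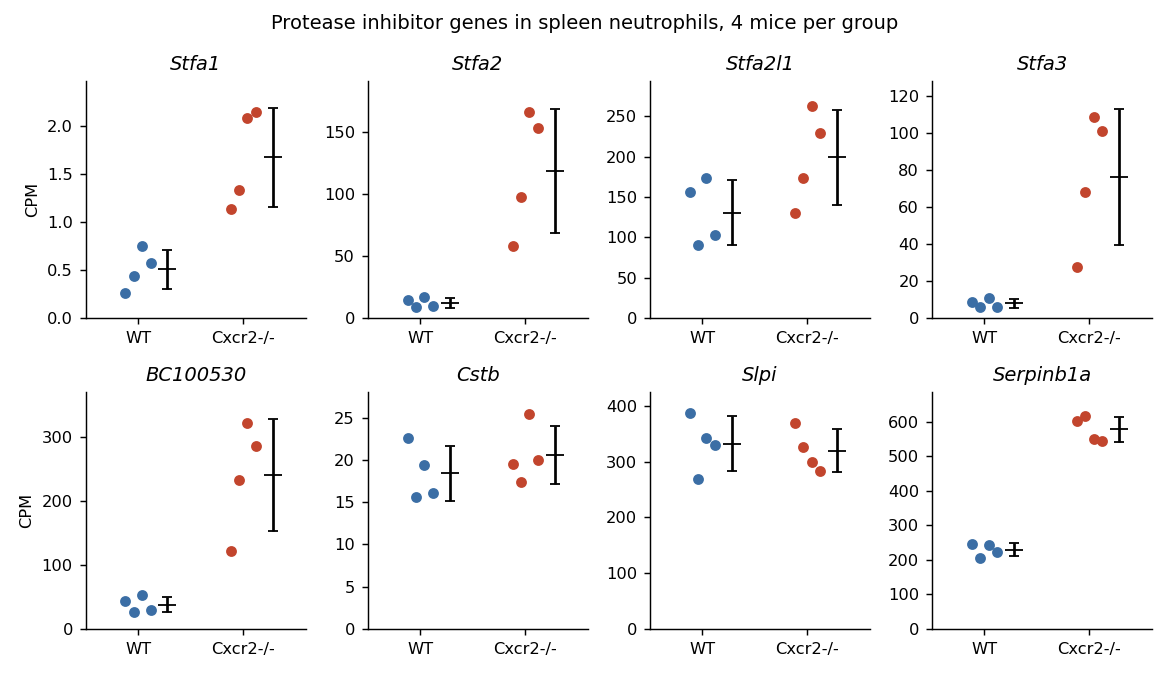
Each panel plots the CPM of 1 gene (vertical axis, from 0) in the 4 WT (blue) and 4 Cxcr2-/- (red) mice, with the mean and SD in black. Stfa1, Stfa2, Stfa3, BC100530 and Serpinb1a have no overlap between the groups, whereas Stfa2l1, Cstb and Slpi overlap.

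Stfa2, a cytosolic inhibitor of cysteine proteases, was at 14.7, 8.92, 17.3 and 9.63 CPM in WT mice 1 to 4 and at 58.5, 98.0, 166 and 153 CPM in Cxcr2-/- mice 1 to 4. The lowest Cxcr2-/- mouse was therefore above the highest WT mouse, and the Cxcr2-/- mice differed among themselves more than the WT mice did. Means were 12.6 ± 4.02 and 119 ± 50.1 CPM (SD, n = 4 each). This gave a log2 fold change of 3.24 (standard error 0.31, edgeR adjusted p = 5.63e-06).

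Stfa3, the last gene of the cluster, followed the same order of mice. It was at 8.95, 5.87, 11.01 and 6.10 CPM in WT and at 27.6, 68.4, 109 and 101 CPM in Cxcr2-/- mice 1 to 4. The groups were apart, with Cxcr2-/- mouse 1 well under the other Cxcr2-/- mice. Means were 7.98 ± 2.46 and 76.4 ± 37.0 CPM (SD, n = 4 each). On the log2 scale it changed by 3.26 (standard error 0.37), with an adjusted p of 1.83e-05 by edgeR's quasi-likelihood test.

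BC100530, a stefin A gene that newer nomenclature lists as Cstdc5, was at 43.8, 26.8, 52.3 and 28.9 CPM in WT and at 121, 233, 323 and 286 CPM in Cxcr2-/- mice 1 to 4. Again every Cxcr2-/- mouse exceeded every WT mouse. The means of 37.9 ± 12.2 and 241 ± 87.8 CPM (SD, n = 4 each) gave a log2 fold change of 2.67 (standard error 0.29, edgeR adjusted p = 1.36e-05). The antisense gene Gm15845 overlaps its exons and was at 1.27 to 2.59 CPM in the WT and at 3.34 to 9.07 CPM in the Cxcr2-/- libraries. Since the strand setting of the counting is not given in the sources used here, reads of this pair cannot be told apart with certainty.

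Stfa1 was scarce, with 12, 22, 28 and 20 counts in WT and 45, 48, 82 and 88 counts in Cxcr2-/- libraries 1 to 4. In CPM this came to 0.265, 0.442, 0.748 and 0.578 against 1.14, 1.33, 2.08 and 2.14, without overlap. Its log2 change of 1.73 carried a standard error of 0.35 (edgeR adjusted p = 0.00161). At these counts its level is known less closely than those of the other stefins.

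Stfa2l1, whose coding sequence is almost that of Stfa2, behaved differently from it. It was at 156, 90.2, 173 and 103 CPM in WT and at 131, 174, 263 and 229 CPM in Cxcr2-/- mice 1 to 4. Cxcr2-/- mouse 1 lay inside the WT range, and the other Cxcr2-/- mice lay above it. Means were 130.7 ± 40.2 and 199 ± 58.6 CPM (SD, n = 4 each), a log2 difference of 0.61 (standard error 0.23, edgeR adjusted p = 0.0492). Adjusted p ran from 0.00515 to 0.164 over 16 alternative settings, and 9 of them put it past 0.05. Without Cxcr2-/- mouse 3 the log2 difference was 0.44 (adjusted p = 0.164), and without Cxcr2-/- mouse 1 it was 0.77 (adjusted p = 0.0117).

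The counts of the 5 stefin A genes were summed, so that a pair assigned to the wrong one of them stays in the total. Their sum was at 224, 132, 255 and 148 CPM in WT and at 339, 574, 863 and 771 CPM in Cxcr2-/- mice 1 to 4. No Cxcr2-/- mouse fell within the WT range, and Cxcr2-/- mouse 1 was nearest to it. The sum was 3.36-fold higher without Cxcr2 (1.75 on the log2 scale, standard error 0.27, edgeR adjusted p = 2.40e-04). With all 11 genes of the cluster, a sum added after the values were seen, the log2 change came to 1.47 (standard error 0.26, adjusted p = 6.21e-04). The covariate made from markers of other cell types gave 1.92 for the 5 genes (edgeR adjusted p = 4.08e-05). Beside these values, the summed precursor markers were at 7.98, 8.46, 17.3 and 4.37 CPM in WT mice 1 to 4. In Cxcr2-/- mice 1 to 4 they were at 70.5, 71.8, 236 and 386 CPM. Cxcr2-/- mouse 1 was lowest in both, but mouse 3 had the highest stefin A sum and mouse 4 the most precursor RNA. Among the WT mice, mouse 2 had the lowest stefin A sum and mouse 4 the fewest precursor transcripts. A link between the 2 sums was not tested.

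The makeup of the stefin A RNA differed between the genotypes. Stfa2l1 took 68.0% to 69.7% of the 5 genes' counts in WT mice and 29.7% to 38.5% in Cxcr2-/- mice. BC100530 took 19.5% to 20.6% and 35.8% to 40.6%, Stfa2 6.49% to 6.78% and 17.1% to 19.9%, and Stfa3 3.998% to 4.44% and 8.13% to 13.1%. The shares were close to each other among the WT mice although their summed level ranged from 132 to 255 CPM. Stfa1 made up under 0.4% in every library. Of all counts assigned to genes, the 5 genes took 0.0142% to 0.0266% in the WT and 0.0306% to 0.0850% in the Cxcr2-/- libraries.

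**Figure D2:**
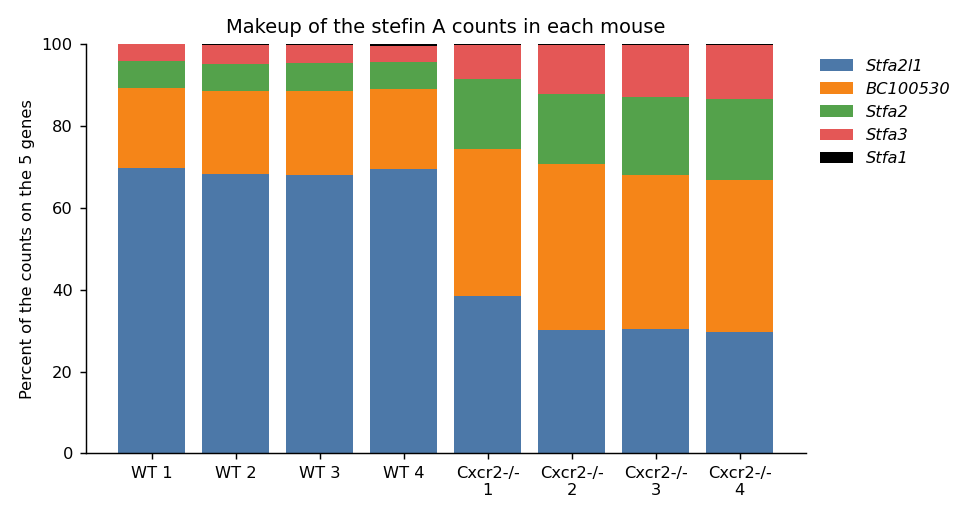
Stacked bars give the percent of the counts on the 5 stefin A genes (vertical axis) that each gene took in each of the 8 mice. Stfa2l1 (blue) takes 68.0% to 69.7% in the WT mice and 29.7% to 38.5% in the Cxcr2-/- mice, the highest share being that of Cxcr2-/- mouse 1.

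Ratios within a library depend little on how libraries are scaled to each other, except through the 0.5 CPM added to genes of few counts such as Stfa1, and 10 of them were tested with an exact permutation test (two-sided, 4 mice against 4), whose smallest possible p is 0.0286. Stfa2l1 to Stfa3 was 3.94 ± 0.09 in WT and 1.502 ± 0.49 in Cxcr2-/- neutrophils on the log2 scale of CPM with 0.5 added (SD, n = 4 each). The difference of -2.44 had no overlap (exact permutation p = 0.0286, Benjamini-Hochberg adjusted p = 0.0317 over the 10 ratios). Stfa2l1 to Stfa2, the closest pair in sequence and a ratio chosen after the values were seen, was 3.32 ± 0.05 in WT and 0.80 ± 0.25 in Cxcr2-/- neutrophils. Its difference of -2.52 reached the same smallest exact permutation p of 0.0286. Since the choice of this ratio followed these values, that p is no independent evidence. Stfa1 to Stfa2 differed by -2.03, again without overlap (exact permutation p = 0.0286, adjusted p = 0.0317), and by -2.46 with 5 CPM added. As Stfa1 is scarce, the value added damps its rise and widens this difference. The log2 fold changes from edgeR, 1.73 for Stfa1 and 3.24 for Stfa2, lie closer together. Thus Stfa2 rose by more than both Stfa2l1 and Stfa1.

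The cluster was then read in its order on chromosome 16, with no test of a trend. On the plus strand Stfa2l1 had a log2 fold change of 0.61 and Stfa1 of 1.73, and on the minus strand BC100530, Stfa2 and Stfa3 had 2.67, 3.24 and 3.26. The values of Stfa2 and Stfa3 differ by less than the standard error of either. The neighbours that are not members filled in the map. Gm5483, on the plus strand next to Stfa2l1, was at 109.9 ± 35.1 CPM in the WT and at 166 ± 48.5 CPM in the Cxcr2-/- mice. It did not pass (log2 difference 0.59, standard error 0.24, edgeR adjusted p = 0.0611). In DESeq2 it passed (adjusted p = 0.0465), as in edgeR without the filter on low counts (0.00757) or with the covariate (0.0139). Leaving out WT mouse 3 (log2 difference 0.76) or Cxcr2-/- mouse 1 (0.78) also made it pass. Gm5416, also on the plus strand, did not pass either (3.10 ± 0.821 and 2.02 ± 0.681 CPM, log2 difference -0.62, standard error 0.28, edgeR adjusted p = 0.0876). It passed with upper-quartile scaling (-0.73, adjusted p = 0.0494) and without Cxcr2-/- mouse 4 (-0.79, adjusted p = 0.0489). BC117090, on the minus strand and 95.2% identical in coding sequence to BC100530, rose from 10.8 ± 2.63 to 63.9 ± 16.6 CPM (log2 fold change 2.56, standard error 0.21, edgeR adjusted p = 1.32e-06). Csta1, 2010005H15Rik and Gm4758 had too few counts to test.

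The 4 minus-strand genes with counts (BC117090, BC100530, Stfa2 and Stfa3) were set against the 4 plus-strand ones (Stfa2l1, Gm5483, Gm5416 and Stfa1), a comparison chosen after the values were seen. Their log2 ratio was -1.80 ± 0.02 in WT and 0.40 ± 0.19 in Cxcr2-/- neutrophils (SD, n = 4 each). The difference of 2.20 had no overlap (exact permutation p = 0.0286, adjusted p = 0.0317). Its p is no independent evidence, because these same values led to the comparison. As the minus-strand genes with counts all lie at one end of the cluster, strand and position cannot be told apart.

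**Figure D3:**
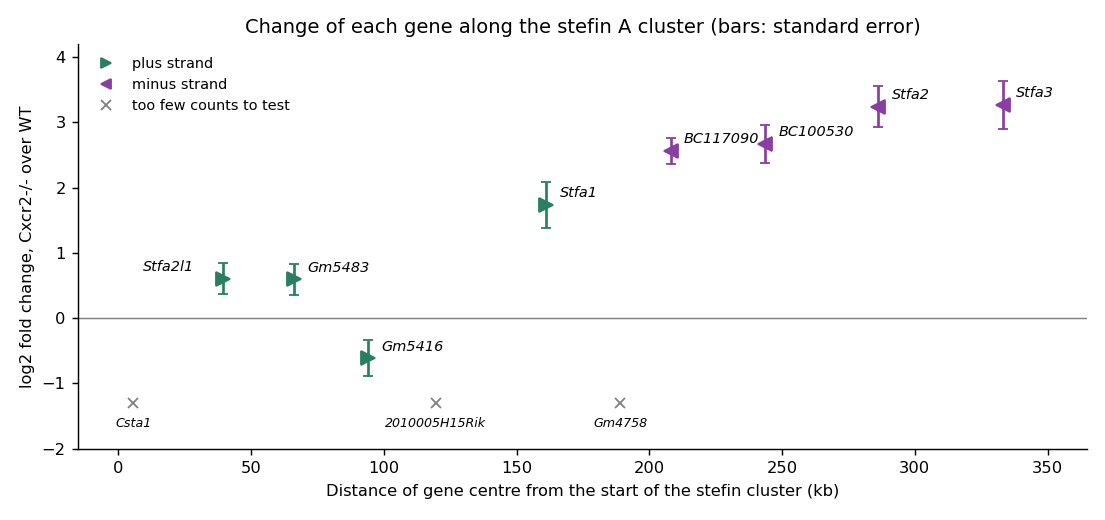
The log2 fold change (Cxcr2-/- over WT, vertical axis) of each gene is plotted at the distance of its centre from the start of the stefin cluster in kb (horizontal axis), with bars for the standard error, green for the plus and purple for the minus strand, and grey crosses, placed at an arbitrary height, for genes with too few counts. The 4 minus-strand genes lie between 2.56 and 3.26, and the 4 tested plus-strand genes between -0.62 and 1.73.

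The stretch upstream of Stfa2l1 and Stfa2 is shown because these near copies changed by different amounts. Both run 5′ to 3′ on the strand of the gene (RefSeq, GRCm38.p6), up to where the longer annotated Stfa2 transcript begins and to the aligned base of Stfa2l1, at chr16:36156561-36156712 (plus) and chr16:36408458-36408613 (minus). Capitals mark bases that differ between the pair or are missing in the other gene.
Stfa2l1: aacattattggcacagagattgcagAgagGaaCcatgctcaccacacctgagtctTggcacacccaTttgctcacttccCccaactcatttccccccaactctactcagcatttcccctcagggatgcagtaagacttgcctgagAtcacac
Stfa2: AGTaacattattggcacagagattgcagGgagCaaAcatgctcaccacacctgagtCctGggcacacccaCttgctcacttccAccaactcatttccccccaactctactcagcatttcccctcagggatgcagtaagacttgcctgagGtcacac

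Over this stretch the pair shared 92.9% of aligned bases, and over the 300 bases of the RefSeq promoter windows 90.5%. Promoters were found for 6 of the 8 members, and Cstb and Serpinb1a had no entry. Searched on both strands, the letters GAGGAA, a core bound by PU.1 and other ETS factors, occurred at 2 places in the Stfa2l1 window and at 1 place in those of Stfa2, Stfa3, Stfa1 and BC100530, and 28.3% of all 32851 promoters hold them. The additional place in Stfa2l1 lies in the stretch printed above, where Stfa2 differs. TTGCNNAA, the form bound by C/EBP factors, occurred at 1 place in Stfa1, BC100530 and Slpi and in neither Stfa2 nor Stfa2l1 (10.8% of all promoters). TGANTCA, the AP-1 form, occurred at 1 place in Stfa3 alone among the 6 (7.81% of all promoters), and TATAAA in none of them (13.6%). All 6 windows hold bases past the M21 start of their gene. The TGANTCA match of Stfa3 lies there, inside the annotated gene and not upstream of it. So do all TTGCNNAA matches, with the whole Slpi window inside its gene, and the GAGGAA matches of Stfa1 and Stfa2. The GAGGAA matches of Stfa2l1, Stfa3 and BC100530 lie upstream of the M21 start. The numbers of places in Stfa2l1 and Stfa2 therefore do not compare upstream sequence alone. No matches of different motifs overlapped, and a match is a description of the sequence alone.

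Cstb (ENSMUSG00000005054, chr10:78425669-78427622, plus strand) encodes the stefin that most cell types make. It was at 22.6, 15.6, 19.4 and 16.1 CPM in WT and at 19.6, 17.3, 25.5 and 19.95 CPM in Cxcr2-/- mice 1 to 4. The groups overlapped, with 1 Cxcr2-/- mouse above the WT range. The log2 difference was 0.16 with a standard error of 0.15 (edgeR adjusted p = 0.408). Relative to cystatin B in the same library, stefin A RNA was therefore higher in Cxcr2-/- than in WT mice. The log2 ratio of the stefin A sum to Cstb was 3.29 ± 0.27 in WT and 4.85 ± 0.52 in Cxcr2-/- neutrophils, a difference of 1.55 without overlap (exact permutation p = 0.0286, adjusted p = 0.0317, n = 4 each).

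Slpi (ENSMUSG00000017002, chr2:164354070-164389095, minus strand) was among the most abundant members and did not separate the genotypes. Its values were 388, 269, 342 and 330 CPM in WT and 370, 327, 300.4 and 283 CPM in Cxcr2-/- mice 1 to 4. All Cxcr2-/- mice lay inside the WT range. The log2 difference was -0.05 (standard error 0.12, edgeR adjusted p = 0.754), and without WT mouse 1 it was 0.03. Mir7678, a miRNA gene that overlaps an exon of Slpi on its strand, took 12 to 37 counts per library against 11400 to 17560 for Slpi. The stefin A sum to Slpi ratio rose by 1.76 on the log2 scale without overlap (exact permutation p = 0.0286, adjusted p = 0.0317).

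Serpinb1a (ENSMUSG00000044734, chr13:32842092-32851185, minus strand) had the tightest groups of the members that rose. It was at 246, 206, 243 and 223 CPM in WT and at 604, 616, 550.0 and 545 CPM in Cxcr2-/- mice 1 to 4. Every Cxcr2-/- value was far above the WT range, and Cxcr2-/- mouse 1, low for the stefins, was not low here. Means were 229 ± 18.4 and 578 ± 36.4 CPM (SD, n = 4 each). This is a log2 change of 1.33 with a standard error of 0.10 (edgeR adjusted p = 6.80e-07). None of its 120-base windows occurred in the transcript of another gene, including its near copies Serpinb1b and Serpinb1c.

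Levels of different genes were compared as CPM per kilobase of M21 exon. The counts were made on another annotation release (52044 of the 52081 matched identifiers carry a higher version number than in M21), so these lengths may differ from those counted. In WT neutrophils Stfa2l1 (312 ± 96.0) and Slpi (282 ± 41.5) were the highest members and overlapped each other. Serpinb1a (99.6 ± 7.99) followed, apart from both neighbours in the order. BC100530 (48.0 ± 15.5), Cstb (30.6 ± 5.44), Stfa2 (26.8 ± 8.55) and Stfa3 (19.4 ± 5.96) overlapped each with the next, and Stfa1 (0.716 ± 0.289) was apart at the bottom. In Cxcr2-/- neutrophils the order was Stfa2l1 (475 ± 140), BC100530 (305 ± 111), Slpi (271 ± 32.1), Stfa2 (253 ± 106), Serpinb1a (251 ± 15.8) and Stfa3 (186 ± 89.7), with overlap at every step. Cstb (34.1 ± 5.74) and Stfa1 (2.36 ± 0.724) lay below them, without overlap. BC100530 and Stfa2 thus stood next to Slpi in Cxcr2-/- cells, whereas in WT cells both had been below it without overlap.

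The cysteine cathepsins, on which stefins act, were measured in the same libraries, with legumain beside them. Summed RNA of the cysteine cathepsins overlapped between the groups, at 369 to 456 CPM in WT and 437 to 594 CPM in Cxcr2-/- mice. Of 11 cysteine protease genes (10 cathepsins and legumain) 10 were tested, 2 rose, 1 fell and 7 did not pass, with a median log2 fold change of 0.23. Of all tested genes 23.7% rose and 21.0% fell, with a median of 0.01. Ctsc, the cathepsin that activates granule serine proteases, rose from 14.3 ± 3.57 to 46.8 ± 18.4 CPM (log2 fold change 1.71, edgeR adjusted p = 2.07e-04). Ctso, a lysosomal cathepsin, rose by 0.51 (adjusted p = 0.0134). Lgmn, the asparaginyl endopeptidase legumain, fell by 0.67 on the log2 scale (edgeR adjusted p = 0.00452). Against the cathepsin sum, the log2 ratio of stefin A RNA was -1.02, -1.76, -0.71 and -1.31 in WT and -0.45, 0.39, 0.54 and 0.38 in Cxcr2-/- mice 1 to 4. All Cxcr2-/- values were higher than all WT values, by 1.42 on average (exact permutation p = 0.0286, adjusted p = 0.0317). Cstb to the same sum differed by -0.14 with overlap (exact permutation p = 0.343).

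Elane, Prtn3 and Ctsg, serine protease genes of the granules, rose by far more than Serpinb1a and Slpi. The sum of Elane, Prtn3 and Ctsg (elastase, proteinase 3 and cathepsin G) was at 2.45, 2.51, 6.23 and 1.27 CPM in WT and at 34.3, 34.5, 126.5 and 205 CPM in Cxcr2-/- mice 1 to 4. No mouse of one genotype fell within the range of the other, and the Cxcr2-/- mice differed among themselves. Log2 fold changes were 5.15 for Elane, 4.86 for Prtn3 and 5.24 for Ctsg, with edgeR adjusted p of 7.25e-05 for Elane, 3.69e-05 for Prtn3 and 3.28e-04 for Ctsg. Without Cxcr2-/- mouse 4 the log2 fold change was 4.46 for Elane and 4.22 for Ctsg, and without WT mouse 3 it was 5.49 for Prtn3 and 6.38 for Ctsg. These genes also serve as precursor markers above. Of the 5 names on the list of neutrophil serine proteases 4 matched a gene and were tested. All 4 rose (median log2 fold change 5.01), where 23.7% of all tested genes rose. Prss57, also on this list, rose from 4.81 ± 0.585 to 11.5 ± 1.49 CPM. Its log2 fold change of 1.26 (edgeR adjusted p = 2.81e-05) was near the 1.33 of Serpinb1a.

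Serpinb1a to the sum of Elane, Prtn3 and Ctsg was therefore lower in Cxcr2-/- neutrophils although Serpinb1a itself rose. The log2 ratio was 6.38, 6.10, 5.17 and 6.98 in WT and 4.12, 4.14, 2.12 and 1.41 in Cxcr2-/- mice 1 to 4, a difference of -3.21 without overlap (exact permutation p = 0.0286, adjusted p = 0.0317). Slpi to the same sum was 6.68 ± 0.80 in WT and 2.09 ± 1.46 in Cxcr2-/- neutrophils (SD, n = 4 each). That difference of -4.60 had no overlap either (exact permutation p = 0.0286, adjusted p = 0.0317). As the WT protease sums are low, both depend on the value added: with 5 CPM in place of 0.5 CPM the differences were -2.04 for Serpinb1a and -3.40 for Slpi, each with an adjusted exact permutation p of 0.0317. In all 8 libraries both inhibitors still had more RNA in CPM than the 3 proteases together. Prtn3, at 48.4 ± 35.9 CPM in Cxcr2-/- mice, is part of the sum set against Slpi. Only elastase and cathepsin G were named above as targets of Slpi, and a ratio without Prtn3 was not computed. RNA ratios carry no measure of the protein stored in granules.

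**Figure D4:**
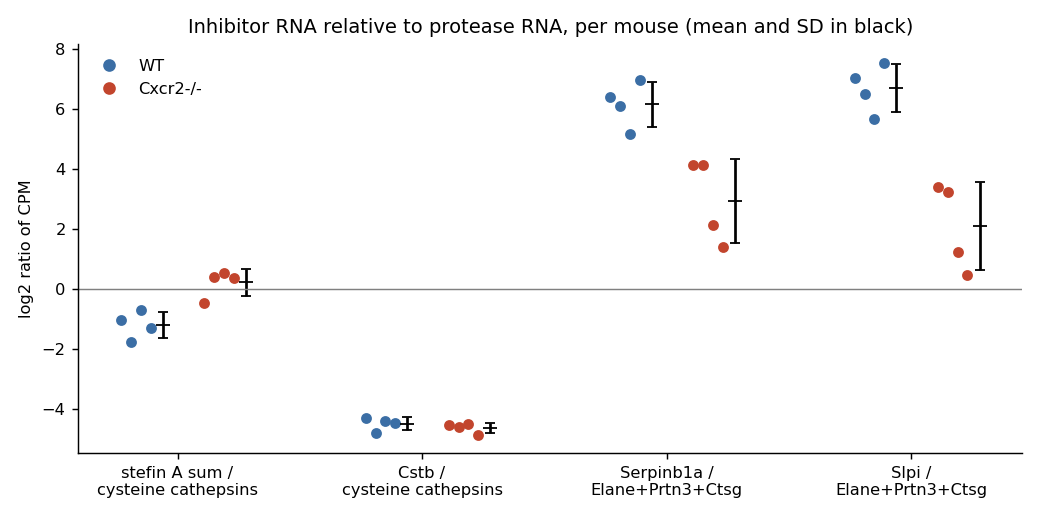
Points give the log2 ratio of CPM of inhibitor to protease RNA (vertical axis) for each WT (blue) and Cxcr2-/- (red) mouse, for 4 ratios along the horizontal axis, with the mean and SD in black. The stefin A to cathepsin ratio is higher in Cxcr2-/- mice by 1.42, and the Cstb ratio overlaps. The Serpinb1a and Slpi ratios to the sum of Elane, Prtn3 and Ctsg differ by -3.21 and -4.60.

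Relatives of the members were counted by family, beside 23.7% of all tested genes that rose and 21.0% that fell. The list of other cystatin family genes held 25 names, with Csta2 and Csta3 as second names of 2010005H15Rik and Gm5416, and 21 matched a gene. Of these 5 were tested, of which 2 rose and 0 fell (median log2 fold change 0.59). Those that rose were BC117090 and Cst7, the secretory-pathway cystatin F, at 0.414 ± 0.070 and 1.53 ± 0.565 CPM (log2 fold change 1.88, edgeR adjusted p = 7.36e-04). Of 26 other clade B serpins 5 were tested and 1 rose, namely Serpinb6a, from 16.03 ± 1.84 to 27.6 ± 2.60 CPM (log2 fold change 0.78, adjusted p = 1.20e-04). Serpinb1a thus had the larger log2 fold change of the 2 clade B genes that rose. Secreted serpins had 7 of 22 genes tested, with 0 higher and 1 lower, Serpinf2 (alpha-2-antiplasmin), at 0.562 ± 0.172 and 0.250 ± 0.036 CPM (log2 fold change -1.16, edgeR adjusted p = 0.0221). Without WT mouse 1 or 3 or Cxcr2-/- mouse 1 this last change was -0.96, -1.14 and -1.07 and did not pass, nor did it with the replicate block, the covariate or no filter (adjusted p = 0.0581, 0.0688 and 0.0555).

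Whey acidic protein genes, the family of Slpi, had 20 names on the list, of which 19 matched a gene. Of these 3 were tested and 3 rose, where 23.7% of all tested genes rose. Wfdc21 was at 187 ± 37.2 CPM in the WT and at 682 ± 109 CPM in the Cxcr2-/- mice (log2 fold change 1.87, edgeR adjusted p = 2.13e-06). Wfdc17 was at 180 ± 101 and 464 ± 159 CPM with overlapping groups (log2 fold change 1.36, adjusted p = 0.00833). Wfdc18, scarcer at 0.825 ± 0.396 and 1.82 ± 0.513 CPM, also overlapped between the groups (log2 fold change 1.14, adjusted p = 0.0193), and without WT mouse 2 or 3 or Cxcr2-/- mouse 2 it did not pass (0.97, 0.91 and 0.98). Slpi did not share the direction of its 3 tested relatives.

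Profiles over the 8 libraries were compared as the root mean square difference of centred log2(CPM + 1), among tested non-member genes of 3 or more in mean log2 CPM. Nearest to the stefin A sum were mt-Rnr1 (difference 0.174), the small ribosomal RNA of the mitochondrion, mt-Co1 (0.222), a subunit of cytochrome c oxidase, and Hist1h1a (0.258), a linker histone. The libraries were depleted of ribosomal RNA, and whether this moved the counts of mt-Rnr1 was not tested. Nearest to Serpinb1a were Gyg (0.037), the primer of glycogen synthesis, Snx1 (0.057), a sorting nexin, and Anxa3 (0.069), an annexin. For Slpi they were Slfn1 (0.055), Slc9a3r1 (0.055) and Adssl1 (0.060). For Cstb they were Mrps24 (0.083), Rpl37 (0.101) and Rps13 (0.101), all ribosomal protein genes. Likeness here describes 8 libraries of 2 groups, and genes that change alike between the groups come out as near.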

How the data were processed

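Neutrophil RNA was depleted of ribosomal RNA, made into stranded libraries and sequenced from both ends. After trimming and STAR alignment to mm10, the authors counted pairs per gene with HTSeq and deposited these raw whole-number counts. The counting annotation, another release than M21 by its version numbers, and the strand setting are not given in the sources used here. Of 55414 gene identifiers, 52081 matched GENCODE M21. Lines holding HTSeq's own totals were left out of library sizes (no gene: 31.4% to 41.5% of pairs in WT, 26.7% to 31.9% in Cxcr2-/-; ambiguous: 2.58% to 3.12%).

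Groups came from the labels, and replicates are separate mice. Libraries of a group were compared pairwise, and none were alike within counting error (chi-square 23.9 to 99.0 per gene). Counts were tested with edgeR 4.0.16 in R 4.3.3 (TMM, filterByExpr, quasi-likelihood test, Benjamini-Hochberg over 16778 genes), after the steps were tested on simulated data. Passing means an adjusted p under 0.05. Standard errors are the log2 fold change over the root of F. Ratios used log2(CPM + 0.5) and exact permutation tests (SciPy 1.17.1). DESeq2 1.42.0, other scalings and filters, a replicate block, a covariate for non-neutrophil RNA and each library left out were alternatives. Named genes are the members, at most the 3 largest rises and falls of each list among genes that passed, the proteases of the ratios, and the 3 nearest profiles. Cluster neighbours and Prss57 were added. Members and lists were chosen with earlier results of these data known.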

Additional observations from a re-analysis of the deposited data

Results flagged for a closer look

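Among 38 groups of 4 values checked for a value far from the others (Dixon's test at its 95% critical value, which chance passes in about 1 of 20 groups), 2 stood out, both in Cxcr2-/- mouse 1. Its log2 ratio of Stfa2l1 to Stfa3 was 2.22, where the other Cxcr2-/- mice had 1.17 to 1.34 (gap over range 0.844). Its log2 ratio of the stefin A sum to the cysteine cathepsins was -0.453, where the others had 0.378 to 0.543 (gap over range 0.835). Without this mouse the log2 fold change of the stefin A sum was 1.96 and that of Stfa3 3.55 (edgeR adjusted p = 2.44e-05 and 4.77e-07).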

How the results depend on the processing

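Over 16 alternatives each, the log2 fold changes ranged from 1.51 to 1.96 for Stfa1, 3.03 to 3.47 for Stfa2, 3.04 to 3.55 for Stfa3, 2.49 to 2.89 for BC100530, 1.22 to 1.37 for Serpinb1a and 1.56 to 1.96 for the stefin A sum, and these 6 passed each time. Cstb (0.03 to 0.28) and Slpi (-0.17 to 0.03) passed in none. Slpi turned to 0.0331 without WT replicate 1. Stfa2l1 (0.44 to 0.77) lost its call with RLE (0.58), upper-quartile (0.49) and total-count scaling (0.54), with at least 10 counts in every library (0.57), and without WT replicate 2 or 4 or Cxcr2-/- replicate 2, 3 or 4 (0.44 to 0.67, adjusted p from 0.0516 to 0.164). The cause was not tested. Genes of the inhibitor and protease lists that fell numbered 2, but 1 with the 10-count filter, the replicate block or the covariate, 3 with DESeq2 or upper-quartile scaling, and 1 to 3 with a library left out (1 without WT replicate 1 or 3 or Cxcr2-/- replicate 1, 3 without Cxcr2-/- replicate 4). Of the named relatives, Serpinf2 lost its call under 6 alternatives (replicate block, covariate, no filter and 3 left-out libraries) and Wfdc18 under 4 (the covariate and 3 left-out libraries). All 100 alternative values of the ratios kept their direction. Adding 5 CPM moved Serpinb1a and Slpi to serine proteases to -2.036 and -3.401.

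Mice with the same number share only that number, and their deviations from the group means correlated at 0.15, -0.187, 0.245 and -0.308. With the replicate block, the log2 fold change was 1.72 for the stefin A sum and 0.61 for Stfa2l1 (edgeR adjusted p = 5.99e-04 and 0.0332). Exact permutations of the ratios within replicate numbers cannot go below 0.125, so none passed there. The differences were 1.554 (stefin A sum to Cstb), 1.76 (to Slpi), 1.418 (to cathepsins), -2.441 (Stfa2l1 to Stfa3), -2.516 (Stfa2l1 to Stfa2), -2.026 (Stfa1 to Stfa2), 2.20 (minus to plus strand), -3.215 (Serpinb1a to serine proteases) and -4.598 (Slpi to serine proteases). Upper-quartile scaling moved the median of all genes to -0.11 and the share of passing genes that rose from 53% to 41.2%. Depth limits Stfa1 most, at 12 to 88 counts per library.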
